A study of Mus musculus with 15 samples.

Results

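Newly formed oligodendrocytes are the short-lived cells between a dividing oligodendrocyte precursor and a myelinating oligodendrocyte. In single-nucleus RNA sequencing (snRNA-seq) of tissue enriched for the dorsal hippocampal formation (dHF), they were taken as nuclei with at least 500 detected genes, at least 2 UMIs of Bcas1, at least 2 UMIs of Gpr17, Bmp4 and Neu4 together, at most 1 UMI of Pdgfra and at most 1 UMI of Gad1 and Gad2 together. A UMI marks a single captured RNA molecule. By this rule 457 of 134019 deposited barcodes were newly formed oligodendrocytes, and 133236 barcodes reached the gene minimum. They came from all 15 mice, at 15 to 46 nuclei per mouse.

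The mice were female C57BL6/J and of matched age, and each gave a library of its own from bilateral dHF-enriched micropunches. The study's methods state that the punches also took in parts of cortex, thalamus and ventral hippocampus, and that such clusters were removed. No nuclei were removed on this ground here, so the cells cannot be placed within the dHF. Shares of nuclei cover all tissue in a punch. The 6 virgin nulliparous (NP) mice were never bred. The 4 control RE mice had reproductive experience (RE), that is breeding, pregnancy, birth, lactation and life with their pups until weaning. The 5 stress RE mice had the same experience, but during the later postpartum period their litters were taken away for some hours each day and their nesting material was reduced. Batches 2 and 3 held 2 mice of each group, whereas the remaining 2 NP mice and the remaining stress RE mouse made up batch 1, which lacked the control RE group. By the study's methods every group was present in each processing batch, so the labelled batches used here may not be those of processing.

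A precursor carries the growth factor receptor Pdgfra, can divide, and leaves the cell cycle before it matures. During the step that follows, cells turn on Bcas1 and the surface receptor Gpr17, extend many fine processes and are either kept or lost. Cells that are kept lose Gpr17 and make the membrane proteins and lipids of myelin, a step that goes on in the adult rodent brain.

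Libraries held 40602582 to 96211264 UMIs, and the newly formed oligodendrocytes of a mouse summed to 99251 to 373538 UMIs. The median newly formed oligodendrocyte had 5811 UMIs and 2478 genes, and 20 nuclei had over 3 times that median. Of 131768 distinct barcode sequences, 2211 (1.68%) occurred in more than 1 library, 5 of them with a newly formed oligodendrocyte. No barcode was a newly formed oligodendrocyte in more than 1 library. A doublet caller gave 91 of the 457 nuclei a score in the range that would be removed. In the classes defined below, it did so for 413 of 3066 precursors, 2798 of 26604 mature oligodendrocytes and 6633 of 103109 remaining nuclei, which are smaller shares. The 91 nuclei had a median of 9570 UMIs, against 5342 in the other members, and 2522 CPM over 9 neuron markers, against 814 CPM. CPM are UMIs of a gene or list scaled to a common library total. The deposited counts are not corrected for free RNA, and values without these 91 nuclei are given beside the results that they changed most.

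Of the 5 marker genes, Enpp6 was the only one that the rule did not use, and its mean level over the class was above that of both neighbours in the lineage. Enpp6 encodes a choline-specific phosphodiesterase. Its level was 630 CPM ± 184 (SD, n = 15 mice) in newly formed oligodendrocytes, 6.40 CPM in precursors and 110 CPM in mature oligodendrocytes. Here precursors were 3066 nuclei with at least 2 UMIs of Pdgfra, and mature oligodendrocytes were 26604 nuclei with at least 3 UMIs of Mog, Mag and Opalin together and little Pdgfra, Gpr17, Bmp4 and Neu4. In the newly formed cells Enpp6 lay between 337 and 982 CPM over mice. An Enpp6 UMI was present in 56.9% of the newly formed oligodendrocytes, 2.25% of precursors, 23.4% of mature oligodendrocytes and 2.21% of all remaining nuclei, at median depths of 5811, 4920, 2873 and 7539 UMIs. After each nucleus was thinned to 2000 UMIs, which left out 9 newly formed oligodendrocytes, 98 precursors, 4981 mature oligodendrocytes and 13033 remaining nuclei, the shares were 46.4%, 0.809%, 17.7% and 0.867%. The remaining nuclei mostly belong to other cell types, but they also hold 6633 barcodes of high doublet score and nuclei just outside the rule, so their share is an upper value for the background from free RNA.

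The 56 nuclei with exactly 2 Bcas1 UMIs had no Enpp6 UMI. They had 180 CPM of Tcf7l2 and 3821 CPM of Tnr, near the means of 225 and 3738 CPM in precursors. Whether the rule admitted some precursors here was not tested. The 93 nuclei with 1 Pdgfra UMI had 82.7 CPM of Enpp6, and the 101 nuclei with exactly 2 UMIs of Gpr17, Bmp4 and Neu4 had 340 CPM, all from UMIs pooled over nuclei. Just outside the rule, the 61 nuclei with 1 Bcas1 UMI had 3.40 CPM, the 351 nuclei with 1 UMI of Gpr17, Bmp4 and Neu4 had 203 CPM, and the 121 nuclei with 2 Pdgfra UMIs had 21.3 CPM. A stricter rule with at least 3 UMIs on both counts left 328 nuclei, with 722 CPM of Enpp6. The 28 nuclei left out for Gad1 and Gad2 had 223 CPM, with an Enpp6 UMI in 46.4% of them. Nuclei at the edges for Bcas1, for Pdgfra and for Gpr17, Bmp4 and Neu4 inside the rule carried less of the independent marker than the 604 CPM pooled over all 457 nuclei.

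The genes of the rule gave the following levels, as a description. Bcas1, a membrane-associated protein of early myelinating cells, had 3549 CPM in newly formed oligodendrocytes, 369 CPM in precursors and 565 CPM in mature oligodendrocytes. Gpr17, a receptor that holds cells before maturation, had 465, 89.3 and 1.97 CPM. Bmp4, a secreted ligand that restrains oligodendrocyte maturation, had 176, 5.99 and 0.262 CPM, and Neu4, a sialidase, had 316, 153 and 0.834 CPM.

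**Figure D1:**
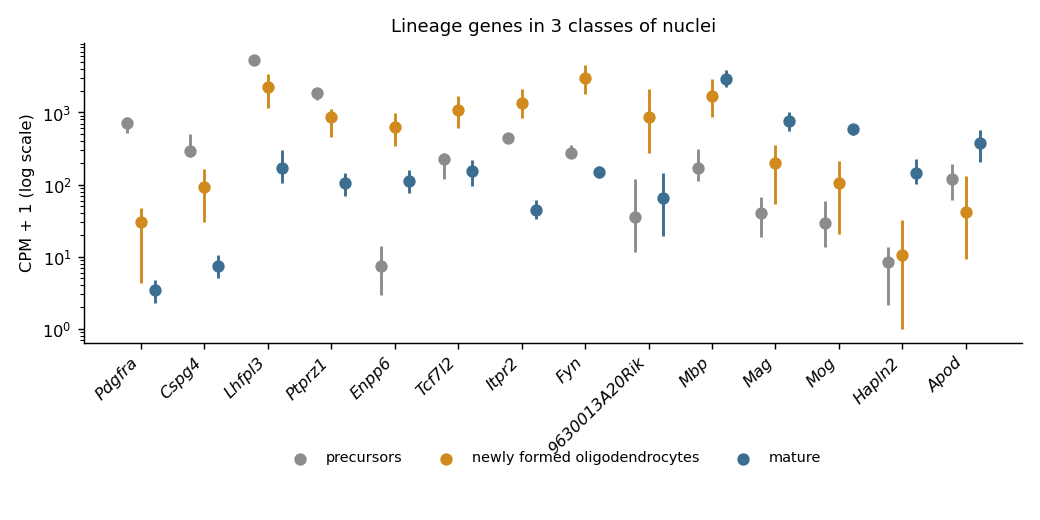
Levels of precursor, newly formed and mature oligodendrocyte genes in 3 classes of nuclei. Points are means over 15 mice and lines run from the lowest to the highest mouse, in CPM + 1 on a log axis; Enpp6, at 630 CPM in the newly formed class, is higher there than in precursors (6.40 CPM) and mature oligodendrocytes (110 CPM), whereas Mbp is higher at each step.

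Levels in newly formed oligodendrocytes were set against both neighbours in the lineage for the 3589 genes that reached 50 CPM in them. Because the cells were chosen on their own counts, this is a description with no test. Of these genes 1194 (33.3%) were above both classes and 1386 lay between the classes. At least 2-fold above both were 181 genes (5.04%), of which 177 were not part of the rule, and 166 of the 181 were above both classes in each of the 15 mice. Genes low in newly formed oligodendrocytes did not reach the 50 CPM, so nothing is read from the number of genes below both.

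The 20 known genes of newly formed oligodendrocytes had 17 members above both classes, 15 of them by at least 2-fold. Fyn, a Src-family kinase that drives process outgrowth and local Mbp translation, had 2974 CPM, against 277 CPM in precursors and 148 CPM in mature oligodendrocytes. Tcf7l2, a Wnt-pathway transcription factor of the switch to maturation, had 1065, 225 and 153 CPM. Itpr2, a calcium release channel of the endoplasmic reticulum, had 1363, 449 and 43.9 CPM, and the cytoskeletal deacetylase Sirt2 had 660, 116 and 123 CPM. The exceptions were Man1a, a Golgi mannosidase, and Ninj2, an adhesion protein, which were higher in mature oligodendrocytes at 127 and 437 CPM than in newly formed ones at 74.8 and 210 CPM, and Casr, which was detected with only 1 UMI.

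The gene with the largest excess over both neighbours was Gm13187, a noncoding transcript with 335 CPM ± 220 (SD, n = 15), against 7.35 CPM in precursors and 10.2 CPM in mature oligodendrocytes. In the GENCODE annotation of GRCm38 it lies on chromosome 2 from 4287595 to 4301167 on the minus strand, inside the span of Frmd4a (4017717 to 4614043, plus strand). Gm36988, also at this locus (4316479 to 4318886, plus strand, within a Frmd4a intron), had 312 CPM, against 8.85 and 12.5 CPM. Frmd4a itself, a scaffold protein of cell polarity, had 6735, 631 and 806 CPM. Counts of Gm36988 and Frmd4a, which share a strand, cannot be told apart with certainty, whereas the library kit keeps the strand of Gm13187.

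Some other noncoding genes of large excess overlap a neighbour. Bcas1os2, an antisense transcript within Bcas1 (chromosome 2, 170356361 to 170380435), had 1013 CPM, against 88.6 and 149 CPM. The rule asked for Bcas1 UMIs, so an excess at this locus is not independent of the choice of nuclei. Gm32743, antisense to the membrane protein gene Tmem108 (chromosome 9, 103521787 to 103545977), had 65.3 CPM, against 8.19 and 6.74 CPM, and Tmem108 itself had 2442, 351 and 307 CPM. On chromosome 9, the long noncoding RNA 9530059O14Rik (122572499 to 122679596) had 1584, 87.3 and 214 CPM, and Gm47134, which lies inside its span on the other strand, had 64.9, 2.60 and 7.13 CPM. 9630013A20Rik, an antisense RNA on chromosome 14 (84458639 to 84476424) that overlaps Pcdh17, had 860, 34.7 and 64.0 CPM.

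Several protein-coding genes were also among the 20 largest excesses. Kif19a, a kinesin, had 92.6 CPM, against 2.38 and 2.83 CPM. Epb41l2, a membrane-skeleton protein, had 1365, 106 and 113 CPM. Pik3r3, a regulatory subunit of phosphoinositide 3-kinase, had 924, 80.5 and 106 CPM, and the Rac-GAPs Chn2 and Arhgap24 had 1004 and 1695 CPM, against 80.4 and 265 CPM in precursors. Gng4, a G protein subunit, Rhbdl2, a rhomboid protease, and Pde9a, a phosphodiesterase, had 80.3, 124 and 99.3 CPM, against at most 13.7 CPM in either neighbour.

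Precursor and myelin genes lay mostly between the neighbouring classes. Mog, Mag and Opalin, which chose the mature class, are fixed in their direction by that choice. All 12 precursor genes were above mature oligodendrocytes, and 10 of 12 were below precursors. Lhfpl3 had 2264 CPM in newly formed oligodendrocytes and 5285 CPM in precursors, and the proteoglycan Cspg4 had 91.6 and 294 CPM. The exceptions were the matrix protein Tnr, at 8546 CPM against 3738 CPM in precursors, and the transcription factor Sox6, at 2531 against 1521 CPM. All 12 myelin genes were above precursors and below mature oligodendrocytes. Mbp, the main cytoplasmic myelin protein, had 1705 CPM, against 171 and 2890 CPM, and Mog, a protein of the outer myelin surface, had 103 CPM, against 28.4 and 581 CPM. Hapln2 and Apod, genes of late oligodendrocytes, had 9.56 and 40.6 CPM, against 146 and 372 CPM in mature oligodendrocytes.

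Among 17 lineage transcription factors, 7 were above both classes. Nkx2-2, which acts at the onset of differentiation, had 143, 42.8 and 16.7 CPM, and Sox4 had 96.0, 38.2 and 5.39 CPM. Myrf, the master regulator of myelin genes, had 95.6 CPM, between 15.0 CPM in precursors and 132 CPM in mature oligodendrocytes. Zfp488, a co-regulator of Olig2, had 62.5, 19.7 and 9.11 CPM. No cell-cycle gene of 12 reached 5 CPM: Mki67 had 2.66 CPM from 8 UMIs over all mice, and Top2a had 0.452 CPM from 2 UMIs, against 16.6 and 23.1 CPM in precursors.

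Receptors and survival genes gave a mixed picture. Thra, the thyroid hormone receptor that drives oligodendrocyte maturation, had 256 CPM, against 112 CPM in precursors and 209 CPM in mature oligodendrocytes, whereas Thrb had 192, 329 and 127 CPM. Nr3c1, the glucocorticoid receptor, had 149 CPM, against 216 and 214 CPM, and its target Zbtb16 had 98.0 CPM, against 154 and 265 CPM. The receptors Esr1, Prlr, Oxtr, Drd1 and Drd2 had 8, 7, 1, 3 and 5 UMIs over all 457 nuclei, too few to compare. Pgr, the progesterone receptor, had 22 UMIs. Tfeb, which acts with the gene of PUMA (Bbc3) in the loss of premyelinating cells, had 109 CPM, against 32.4 and 92.6 CPM, and Bbc3 itself had only 9 UMIs. Plxnb3, a semaphorin receptor, had 170, 34.2 and 101 CPM.

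The 457 nuclei were not uniform. For each nucleus, UMIs of 12 myelin genes were divided by UMIs of 12 precursor genes, with 1 added to both, and the nuclei were ordered by the log2 of this ratio and split into early (153), middle (152) and late (152) nuclei, the early, the middle and the late set. The median ratio was −3.07 and ranged from −7.61 to 7.21. Values below are CPM from UMIs pooled over the nuclei of each set, and the genes of both lists are fixed in their direction by the ordering. Depth also differed, with medians of 4733, 6091 and 7500 UMIs, as did the number of nuclei with high doublet scores (13, 23 and 55). The part of depth was not tested. Without the nuclei of high doublet score, Enpp6 had 52.7, 702 and 1181 CPM, Gpr17 410, 811 and 390 CPM, and Bmp4 74.0, 275 and 236 CPM in the same order. The boundaries fell within a continuous range of nuclei.

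Of the 3589 genes of at least 50 CPM, 381 (10.6%) were at least 2-fold higher and 413 (11.5%) at least 2-fold lower in the late than in the early set. Enpp6, on neither list, had 65.2 CPM in the early, 564 CPM in the middle and 981 CPM in the late set, and was higher in the late set in 14 of the 14 mice with at least 3 nuclei in both. The early value was below the mean of 110 CPM in mature oligodendrocytes and above that of 6.40 CPM in precursors. Gm13187 went from 4.66 through 76.6 to 744 CPM and Frmd4a from 588 through 2562 to 13549 CPM. Early Gm13187, Frmd4a and Tcf7l2 (266 CPM) were near their precursor means of 7.35, 631 and 225 CPM. Early Fyn, Itpr2 and Sirt2, at 1269, 741 and 238 CPM, were above theirs of 277, 449 and 116 CPM. Whether the early set held some precursors was not tested, and excesses over the class need not hold for it. Nfasc, an adhesion protein of the axon–glia contact, had 253, 1078 and 4465 CPM. Lpar1, a lysophosphatidic acid receptor, had 4.66, 6.54 and 163 CPM, with most of the difference between the middle and the late set.

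Bmp4, Gpr17 and Nkx2-2 were highest in the middle set. Gpr17 and Bmp4 helped to choose the nuclei, so their levels describe the class and are no independent course. Gpr17 had 370, 648 and 307 CPM, Bmp4 had 68.7, 228 and 154 CPM, and Nkx2-2 had 111, 231 and 88.8 CPM. Fyn was also highest in the middle set, at 1269, 3897 and 2902 CPM. Unlike Gpr17 and Nkx2-2 it stayed above its early level in the late set, in 14 of 14 mice. Nrg1, a ligand of the Erbb receptors, had 1326, 2677 and 842 CPM, and E330009J07Rik had 54.7, 162 and 50.7 CPM.

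Genes on no list that fell from early to late include several known from precursors. Cspg5, a proteoglycan, had 285, 40.2 and 26.9 CPM, Gpc5, a glypican, had 2395, 485 and 290 CPM, and Dpp10, a subunit of A-type potassium channels, had 1311, 383 and 151 CPM. Each was lower in the late set in all 14 mice. Thrb went from 284 through 231 to 107 CPM while Thra went from 132 through 260 to 296 CPM, and Tfeb went from 40.8 through 110 to 146 CPM. Rnf43, a Wnt-pathway ubiquitin ligase, had 137, 141 and 29.8 CPM, and Prom1, a membrane glycoprotein, had 1.16, 1.87 and 116 CPM.

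**Figure D2:**
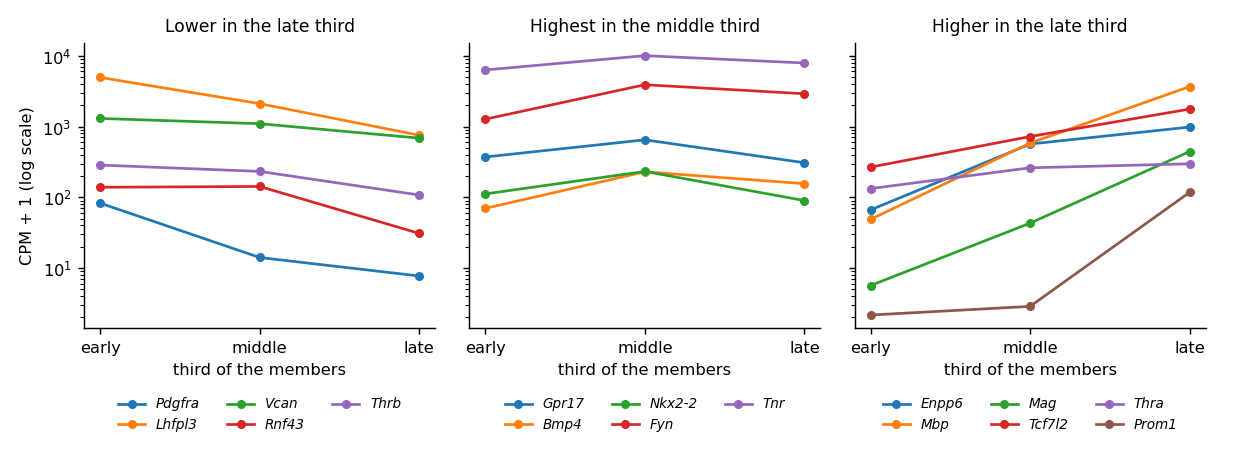
Levels of selected genes in the early, the middle and the late set of the 457 newly formed oligodendrocytes, in CPM + 1 on a log axis, pooled over all mice. Gpr17, Bmp4, Nkx2-2, Fyn and Tnr peak in the middle set, whereas Enpp6 goes from 65.2 to 981 CPM; Pdgfra, Gpr17, Bmp4, the precursor-list genes Lhfpl3, Vcan and Tnr, and the myelin-list genes Mbp and Mag helped to choose or order the nuclei.

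At the upper end of this order stood 27 nuclei from 13 mice with more myelin-list than precursor-list UMIs. Their myelin and precursor genes differ from the rest by this choice, with 548 CPM of Mog and 1007 CPM of Mag, against 63.5 and 116 CPM in the other 430 nuclei. Enpp6, which did not order the nuclei, had 629 CPM in the 27 nuclei and 602 CPM in the other 430. The late set without the 27 nuclei had 98.4 CPM of Lpar1, 61.2 CPM of Prom1 and 1080 CPM of Enpp6, against 163, 116 and 981 CPM with them. Of the 13 nuclei with a log2 ratio above 2, 12 had exactly the minimum of 2 UMIs of Gpr17, Bmp4 and Neu4, as did 84 (19.5%) of the 430 nuclei with a ratio of at most 0. These 13 nuclei had 274 CPM of Enpp6. The 4 of them from NP mice had 28.2 CPM of Enpp6 and 84.6 CPM of Tcf7l2, and the 9 from stress RE mice had 355 and 1858 CPM. Whether the rule admitted some mature oligodendrocytes here was not tested, and the myelin-to-precursor ratios of the groups below include these nuclei unless stated. Of the 27 nuclei, 16 came from stress RE, 9 from NP and 2 from control RE mice, and 9 of them had high doublet scores. Values without them are given below where they change a result between groups.

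The first question between groups was whether reproductive experience or postpartum stress went with more or fewer newly formed oligodendrocytes. Their share of nuclei with at least 500 genes was 0.331% ± 0.0671 (SD, n = 6) in NP mice, 0.334% ± 0.0874 (n = 4) in the control RE group and 0.365% ± 0.100 (n = 5) in the stress RE group. The NP mice ran from 0.223% to 0.4004% with a median of 0.337%. The control RE mice had 0.406%, 0.313%, 0.399% and 0.219%, and the stress RE mice had 0.490%, 0.261%, 0.268%, 0.431% and 0.374%. The 3 groups overlapped over most of their range. Because the rule asks for UMIs, fewer cells of the type and less RNA per cell cannot be told apart in these shares.

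Differences in share were small against the spread between mice. Control RE minus NP was 0.00291 percentage points (95% interval −0.111 to 0.110; two-sided exact permutation p = 0.933, adjusted over 9 tests 0.933). Stress RE minus control RE was 0.0305 percentage points (−0.138 to 0.194; exact permutation p = 0.635, adjusted 0.812), and stress RE minus NP was 0.0334 percentage points (−0.0831 to 0.151; exact permutation p = 0.509, adjusted 0.763). Within batches 2 and 3, control RE minus NP was −0.109 and 0.0951, stress RE minus control RE 0.136 and −0.0233, and stress RE minus NP 0.0274 and 0.0718 percentage points. The counting error of a single mouse was wide, from 0.135% to 0.368% (95% Wilson interval) for the NP mouse with 15 nuclei.

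Counted against their source, there were 13.0 ± 2.68 (SD, n = 6) newly formed oligodendrocytes per 100 precursor nuclei in NP mice, 15.6 ± 4.45 (n = 4) in the control RE group and 16.5 ± 4.74 (n = 5) in the stress RE group. Control RE minus NP was 2.56 (95% interval −2.64 to 7.75; exact permutation p = 0.286, adjusted 0.514). Stress RE minus control RE was 0.956 (−6.46 to 8.25; exact permutation p = 0.722, adjusted 0.812), and stress RE minus NP was 3.51 (−1.35 to 8.79; exact permutation p = 0.145, adjusted 0.326). With single mice left out in turn, the last difference ran from 1.69 to 4.93 (exact permutation p from 0.0476 to 0.314). The highest value was that without stress RE mouse 2, which had 15 newly formed oligodendrocytes. Within batches 2 and 3 the differences were −3.46 and 8.14, 4.68 and 0.0642, and 1.22 and 8.20, in the same order.

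**Figure D3:**
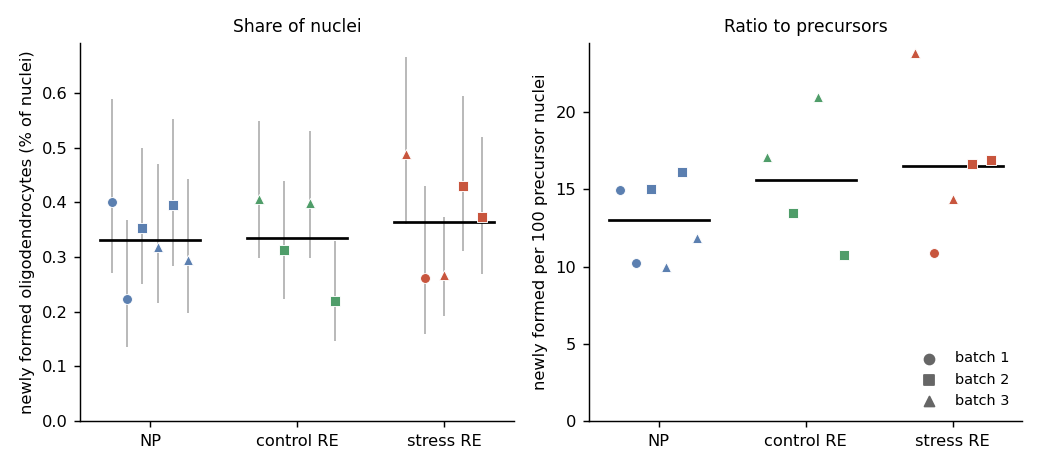
Newly formed oligodendrocytes in each mouse as a percentage of nuclei with at least 500 genes (left, with 95% Wilson intervals for counting error) and per 100 precursor nuclei (right). Points are mice, symbols are batches and black lines are group means, which lie at 0.331%, 0.334% and 0.365% on the left and at 13.0, 15.6 and 16.5 on the right, with overlapping groups.

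The second question was whether the balance of myelin-list to precursor-list UMIs differed between groups. Tnr and Sox6, both higher in newly formed oligodendrocytes than in precursors, made up 8546 and 2531 of the 18259 CPM of the precursor list. No alternative left these genes out. The ratio, and the order of nuclei above, are therefore no clean measure of maturation. The log2 ratio of the summed myelin list to the summed precursor list was −1.97 ± 0.38 (SD, n = 6) in NP mice, −2.50 ± 0.40 (n = 4) in the control RE group and −1.63 ± 0.27 (n = 5) in the stress RE group. The control RE mice had −2.27, −2.10, −2.99 and −2.64, and the stress RE mice had −1.51, −1.94, −1.25, −1.61 and −1.82. Every stress RE mouse was therefore above every control RE mouse, and the NP mice, from −2.51 to −1.52, overlapped with both.

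Stress RE minus control RE was 0.87 (95% interval 0.33 to 1.43) on the log2 scale, with an exact permutation p of 0.00794, the smallest that 126 arrangements allow, and an adjusted p of 0.0714 over the 9 tests. It was 0.66 within batch 2 and 1.25 within batch 3, and with labels permuted within batches it was 0.95 (exact permutation p = 0.0556, the smallest that 36 arrangements allow). Control RE minus NP was −0.54 (−1.14 to 0.05; exact permutation p = 0.0619, adjusted 0.279), −0.21 and −0.97 within the batches, and −0.06 without nuclei of high doublet score. Stress RE minus NP was 0.34 (−0.13 to 0.80; exact permutation p = 0.123, adjusted 0.326), and 0.45 and 0.29 within the batches. It was 0.69 without nuclei of high doublet score (exact permutation p = 0.0455) and −0.36 with the median over nuclei (exact permutation p = 0.429). Each pair of these comparisons shares a group of mice. Without nuclei of high doublet score, NP mouse 4 went from 25 to 15 nuclei and from −1.81 to −3.75, while the other NP mice lay from −2.51 to −1.76. The doublet-free values against NP thus rest in large part on this mouse. The myelin list itself had 6158 CPM ± 1198 in stress RE (n = 5) and 3341 CPM ± 835 in control RE mice (n = 4), whereas the precursor list had 18764 CPM ± 1590 and 18445 CPM ± 1544.

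The 27 nuclei at the upper end were picked by this same ratio and came mostly from stress RE mice, so leaving them out lowers the difference by construction, and the values without them are a description. With the 430 nuclei that had a ratio of at most 0, stress RE minus control RE was 0.08 (exact permutation p = 0.746), control RE minus NP −0.18 (exact permutation p = 0.471) and stress RE minus NP −0.09 (exact permutation p = 0.710). Nuclei above 0 made up 0% to 2.44% of the class in control RE, 3.13% to 8.00% in NP and 6.67% to 14.7% in stress RE mice. Under the stricter rule the difference was 0.24 (exact permutation p = 0.532), and with the median over nuclei in place of the sum it was 0.32 (exact permutation p = 0.540). Without nuclei with high doublet scores it was 0.75 (exact permutation p = 0.0317).

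Myelin-list UMIs in other nuclei, which hold their own RNA, free RNA and doublets, were measured beside it. Precursors held 842 CPM ± 153 of the myelin list in control RE against 1057 CPM ± 406 in stress RE mice, and nuclei outside the lineage held 437 CPM ± 67.1 and 428 CPM ± 274. Over all 15 mice, with the 3 groups pooled, the myelin level in precursors went with the ratio at a Pearson r of 0.585 (permutation p = 0.0219, adjusted 0.104 over 5 relations) and a Spearman rho of 0.536 (permutation p = 0.0424, adjusted 0.0707). Without the 2 mice farthest from the median myelin level r was 0.391, and within batches 2 and 3 it was 0.548 and 0.573 (6 mice each). The mature share went with the ratio at an r of 0.532 (permutation p = 0.0415, adjusted 0.104) and a rho of 0.546 (permutation p = 0.0375, adjusted 0.0707), with r at 0.491 without the 2 farthest mice and at 0.673 and 0.551 within the batches. No relation passed the threshold after adjustment, and free RNA itself was not measured.

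**Figure D4:**
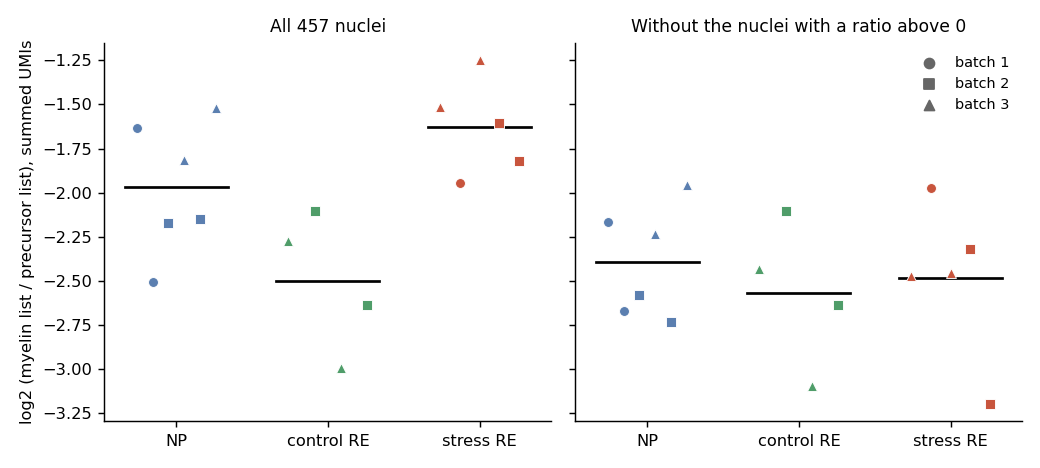
Log2 ratio of the summed myelin list to the summed precursor list in newly formed oligodendrocytes of each mouse, for all 457 nuclei (left) and for the 430 nuclei with a ratio of at most 0 (right). Points are mice, symbols are batches and black lines are group means; on the left the 5 stress RE mice lie from −1.94 to −1.25, above the 4 control RE mice, and on the right the groups overlap.

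The third question was which genes differed between groups within the class. UMIs were summed per mouse, and 4391 genes passed the filter on low counts. In edgeR's quasi-likelihood test at an adjusted p of 0.05, 0 genes (0.0%) were called for control RE against NP, for stress RE against control RE and for stress RE against NP. At an unadjusted p under 0.05 there were 152, 369 and 345 genes, and DESeq2 called 0, 8 and 0. In simulated counts at these depths, edgeR called 41%, 33% and 47% of genes changed by a log2 of 1 and 93%, 84% and 95% of those changed by a log2 of 2, so 2-fold changes could be missed. The same test called 0 genes in precursors and 0 in mature oligodendrocytes for each of the 3 comparisons.

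Against control RE, stress RE mice had the smallest p-values for Scrg1, Ywhaq, Tspan2, Gm26834 and Adamts4, all at an adjusted p of 0.0752 in edgeR and so not called. Values are CPM after TMM scaling. Scrg1, which encodes a small secreted protein, had 87.5, 70.0, 68.5 and 67.0 CPM in control RE against 161, 138, 144, 170 and 141 CPM in stress RE mice. The 2 groups did not overlap, and the NP mice lay between them, from 97.1 to 123 CPM. The log2 fold change was 1.04 (SE 0.19) by edgeR. It was 0.16 (SE 0.13, adjusted p = 1.000) in precursors and −0.30 (SE 0.31, adjusted p = 1.000) in mature oligodendrocytes, by the same edgeR test.

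Scrg1, picked for its small p-value, is given here with the 27 nuclei left out, a setting chosen after seeing the data that keeps 430 of the same 457 nuclei. Its log2 fold change was then 1.16 (SE 0.19, adjusted p = 0.0364 by edgeR), and it was the 1 gene called by edgeR, whereas DESeq2 gave an adjusted p of 0.0560. Over 26 alternative settings Scrg1 was called in 2. Its adjusted p by edgeR was 0.171 without nuclei of high doublet score and 0.730 under the stricter rule. The early, the middle and the late set had 101, 115 and 79.8 CPM of Scrg1, and the part of maturation in its difference was not tested.

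The other 4 genes were highest in the late set. Tspan2, a tetraspanin of oligodendrocytes, had 137, 81.7, 62.3 and 115 CPM in control RE against 165, 219, 313, 276 and 248 CPM in stress RE mice, a log2 fold change of 1.32 (SE 0.26). Ywhaq, a 14-3-3 adaptor protein, had a log2 fold change of 1.50 (SE 0.29), from 66.0 CPM ± 25.9 (n = 4) to 196 CPM ± 37.4 (n = 5). Adamts4, a protease of the extracellular matrix, had 10.5 CPM ± 1.89 in control RE against 64.2 CPM ± 33.9 in stress RE mice, and the noncoding Gm26834 had 14.1 CPM ± 12.0 and 79.4 CPM ± 15.8. All 10 NP and control RE mice had at most 47.3 CPM of Gm26834, so that this gene passed the filter on low counts through the stress RE mice. Adamts4 passed it through stress RE mice and 1 NP mouse, since the control RE mice had at most 12.5 CPM and 5 of 6 NP mice at most 35.7 CPM. The tests and the lack of overlap of these 2 genes are no support for a difference. The 2 groups did not overlap for any of the 5 genes, as for 122 (2.78%) of the 4391 genes tested. For control RE against NP this held for 37 genes (0.843%), and for stress RE against NP for 26 (0.592%). Without the 27 nuclei, Tspan2 was at 0.85 (adjusted p = 0.988 by edgeR) and Ywhaq at 0.94 (adjusted p = 0.988 by edgeR), and Gm26834 and Adamts4 no longer passed the filter.

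**Figure D5:**
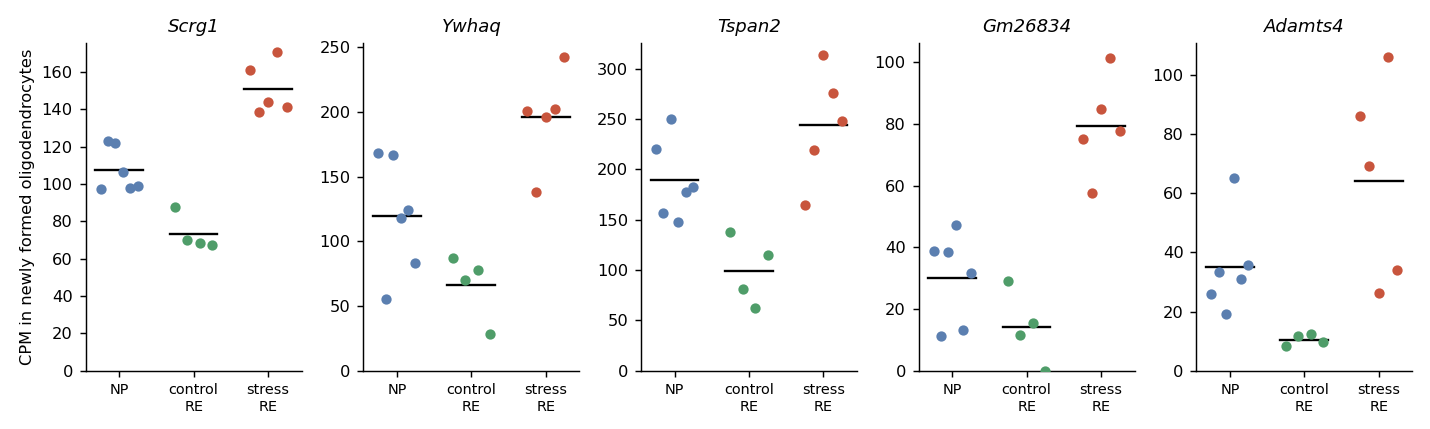
Levels of the 5 genes with the smallest p-values for stress RE against control RE, in CPM after TMM scaling, in the newly formed oligodendrocytes of each mouse. Points are mice and black lines are group means; the stress RE mice lie above all control RE mice in each panel, for Scrg1 at 138 to 170 against 67.0 to 87.5 CPM, and no gene was called by edgeR.

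DESeq2 called 8 genes (0.182%) for stress RE against control RE. Tspan2, Ywhaq, Gm26834, Adamts4, Mbp, Prom1 and Sytl2 were higher and Galntl6, a glycosyltransferase, was lower in stress RE mice, where the limit on Gm26834 and Adamts4 given above holds too. Mbp had a log2 fold change of 0.93 (SE 0.23, adjusted p = 0.0314 by DESeq2). Prom1 had 9.87 CPM ± 12.5 in control RE (n = 4), 42.3 CPM ± 34.1 in NP (n = 6) and 87.4 CPM ± 47.0 in stress RE mice (n = 5), so that it too passed the filter through groups where it was higher, and its test is no support for a difference. Sytl2, at 81.8 CPM over all mice and a log2 fold change of 2.37 by DESeq2, may have passed the filter in the same way. Its late-set level was 186 CPM, and 47.8 CPM with the 27 nuclei left out. With the 27 nuclei left out, DESeq2 called 0 genes, and Mbp was at 0.27 (adjusted p = 0.990 by edgeR).

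The gene lists are given with and without the 27 nuclei, which were picked for their myelin-list UMIs, so that the second values are again a description. The myelin list is the numerator of the log2 ratio of the second question, in the same nuclei. In each comparison the direction of its genes therefore restates that ratio and adds no support. Of 12 myelin genes, 10 were tested and 0 called by edgeR for stress RE against control RE, whereas DESeq2 called Mbp. All 10 were higher in stress RE mice, each at an unadjusted p under 0.05, with a median log2 fold change of 0.97 against 0.01 over all 4391 genes, of which 2247 were higher and 8.40% reached that p. Mobp was at 1.88 (SE 0.46, adjusted p = 0.172 by edgeR) and Mog at 1.02 (SE 0.37, adjusted p = 0.385 by edgeR). Opalin and Mal, at 45.2 and 57.8 CPM over all mice, were at 1.40 and 1.44, and at −1.03 and −0.49 for control RE against NP. They may have passed the filter on low counts through the groups where they were higher, so their tests are no support for a difference. With the 27 nuclei left out, 8 myelin genes were tested, 6 were higher, none reached an unadjusted p of 0.05, and the median was 0.18. The precursor genes then had 11 of 12 higher in stress RE mice, with a median of 0.20.

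Of 20 newly formed oligodendrocyte genes, 18 were tested and 0 called by edgeR, whereas DESeq2 called Prom1. All 18 were higher in stress RE than in control RE mice, with a median of 0.49, and 5 (27.8%, against 8.40% of all genes tested) reached an unadjusted p under 0.05, among them Tcf7l2 (0.55, SE 0.24, adjusted p = 0.524 by edgeR) and Prom1, with the limit given above. With the 27 nuclei left out, 13 of 16 were higher, with a median of 0.27, and 0 reached an unadjusted p of 0.05. The 12 precursor genes were all tested, with 6 higher and 6 lower. The marker genes themselves were not called: Enpp6 differed by 0.44 (SE 0.27, adjusted p = 0.699 by edgeR), Gpr17 by 0.59 (SE 0.35, adjusted p = 0.696 by edgeR) and Bmp4 by 0.11 (SE 0.44, adjusted p = 0.987 by edgeR).

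Lists tied to hormones and stress had few genes at a testable level. Of 16 hormone and dopamine receptors 4 passed the filter, and 0 were called. Thrb was at −0.57 (SE 0.24, adjusted p = 0.489 by edgeR), Nr3c2, the mineralocorticoid receptor, at −0.59 (SE 0.38, adjusted p = 0.725 by edgeR) and Nr3c1 at −0.25 (SE 0.22, adjusted p = 0.828 by edgeR) for stress RE against control RE. Of 12 glucocorticoid-response genes 3 passed, with Zbtb16 at −1.12 (SE 0.38, adjusted p = 0.366 by edgeR) and Fkbp5, a chaperone induced by glucocorticoids, at 0.02 (SE 0.34, adjusted p = 1.000 by edgeR). Of 20 lipid-synthesis genes 9 passed and all 9 were higher, with a median of 0.57. That list became 6 higher of 7, with a median of 0.23, when the 27 nuclei were left out. Of 20 BMP and Wnt genes 11 passed, 3 higher and 8 lower, and of 17 surface receptors 11 passed, 3 higher and 8 lower. Of 17 lineage transcription factors 11 passed and all were higher, with a median of 0.41, or 9 of 11 with a median of 0.26 when the 27 nuclei were left out, and of 8 survival genes 2 passed.

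Markers of other cells moved beside these genes. Summed over 9 neuron markers, newly formed oligodendrocytes held 1538 CPM ± 488 (1186 to 2249 CPM) in control RE against 936 CPM ± 536 (525 to 1821 CPM) in stress RE mice, and 1416 CPM ± 758 (637 to 2609 CPM) in NP mice. Of 6 neuron markers tested, 4 were lower in stress RE mice, with a median of −0.72. Of 8 astrocyte and 8 microglia markers 2 each were tested, and all 4 were lower. Of 8 neuroblast markers 1 was tested, the noncoding Sox2ot, at 0.61 (SE 0.21, adjusted p = 0.383 by edgeR), which makes up nearly all of that list in these cells, at 1244 CPM, against 30.4 CPM of Dcx, the defining neuroblast marker, and 0 UMIs of Dlx1 and Dlx2. No vascular marker was tested, and Cldn5 had 0 UMIs. Their part in the differences between groups was not tested.

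For control RE against NP, the 5 smallest p-values were those of Pcyt2, Bcan, Tspan2, Asxl1 and Mlxip, none called (adjusted p = 0.999 by edgeR for each). Pcyt2, an enzyme of phosphatidylethanolamine synthesis, had 71.1 CPM ± 13.8 in control RE (n = 4) against 173 CPM ± 63.2 in NP mice (n = 6), a log2 fold change of −1.20 (SE 0.31), and without nuclei of high doublet score it was at −0.69 (SE 0.35). Bcan, a perineuronal matrix proteoglycan, was at −0.91 (SE 0.24) and the chromatin regulator Asxl1 at −0.83 (SE 0.23). Mlxip, a glucose-sensing transcription factor, was higher in control RE mice at 0.90 (SE 0.27). All 10 myelin genes tested were lower in control RE than in NP mice, 2 of them at an unadjusted p under 0.05, with a median of −0.47 and with the limit on Opalin and Mal given above. Of all 4391 genes 2267 were lower and 3.46% reached that p. With the 27 nuclei left out, 4 of 8 were higher and 4 lower, none reached an unadjusted p of 0.05, and the median was −0.05.

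For stress RE against NP, the 5 smallest p-values were those of St6galnac3, Trf, Vsnl1, A230006K03Rik and Erbin, none called (adjusted p = 0.519 by edgeR for each). The sialyltransferase gene St6galnac3 was at 0.89 (SE 0.19) and Trf, which encodes the iron carrier transferrin, at 1.41 (SE 0.32). With the 27 nuclei left out, Trf was at 0.61 (SE 0.44, adjusted p = 0.981 by edgeR). Erbin, a scaffold protein that binds Erbb2, was at 0.71 (SE 0.19). Vsnl1, a neuronal calcium sensor, was lower at −1.03 (SE 0.25), as was A230006K03Rik at −2.11 (SE 0.54). With the limit on Opalin and Mal given above, all 10 myelin genes tested were higher in stress RE than in NP mice, with a median of 0.51, and 2 of them reached an unadjusted p under 0.05. Of all 4391 genes 2225 were higher and 7.86% reached that p. With the 27 nuclei left out, 7 of 8 were higher, none reached an unadjusted p of 0.05, and the median was 0.10.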

How the data were processed

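For each of the 15 mice the authors deposited UMI counts per barcode for 32285 genes, limited to barcodes that Cell Ranger called as nuclei. The submitters' processing notes name Cell Ranger 7.1.0 and the file headers name 7.0.0, with the mm10 reference (GRCm38). These deposited counts are whole numbers without normalization, and the later steps of the study's methods (SoupX, DoubletFinder, SCTransform) are not in them. No cell annotation was used here.

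Nuclei were assigned by UMI thresholds alone, with no clustering. Scrublet in scanpy 1.11.5 scored doublets within each library. They were kept in the main values, and removed at 0.8% per 1000 barcodes as an alternative. Shares and ratios were compared over mice by two-sided exact permutation tests on the absolute difference of means, without regard to batch, with 95% intervals from inverting the test and Benjamini-Hochberg adjustment over 9 tests. UMIs were summed per mouse (all 15 mice had at least 10 nuclei) and tested with edgeR 4.0.16 (filterByExpr, TMM, quasi-likelihood) in R 4.3.3, all 3 groups in one fit, with DESeq2 1.42.0 as an alternative. The edgeR fit was checked on simulated data in which 200 of 4391 genes were changed. Intervals on shares cover counting error only. Depth per library is in the report, and summed UMIs of 99251 to 373538 per mouse set the precision of each level.

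Members and gene lists were chosen with earlier results of these data known. Named genes were the markers, the 5 smallest p-values per comparison where fewer than 5 genes were called, called genes and the most abundant genes of each list, certain receptors, and the 20 largest excesses over both neighbours among genes of at least 50 CPM. Other genes in the text, among them those that DESeq2 alone called, exceptions within a list and genes that differed between early and late nuclei, were named after their values were seen. Mouse numbers only name samples. Values of 1 myelin gene are not reported here.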

Additional observations from a re-analysis of the deposited data

Results flagged for a closer look

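In 9 of 75 sets of values (a gene in the mice of a group), the highest or lowest mouse stood apart by Dixon's criterion, which chance meets in about 1 of 20 sets. Values are CPM in newly formed oligodendrocytes. Stress RE mouse 5 had 218 CPM of Gpr17, with the nearest stress RE mouse at 547 CPM, and 87.5 CPM of Vsnl1, with the nearest at 55.3 CPM. Stress RE mouse 3 had 39.2 CPM of Mlxip, with the nearest at 97.2 CPM. NP mouse 2 had 383 CPM of Bmp4, with the nearest NP mouse at 169 CPM. NP mouse 4 had 1551 CPM of Tcf7l2, with the nearest at 1182 CPM, and 65.0 CPM of Adamts4, with the nearest at 35.7 CPM. NP mouse 3 had 89.9 CPM of Trf, with the nearest at 55.8 CPM. Control RE mouse 1 had 87.5 CPM of Scrg1, with the nearest control RE mouse at 70.0 CPM, and control RE mouse 3 had 327 CPM of St6galnac3, with the nearest at 402 CPM. NP mouse 2 gave 15 nuclei, so its levels rest on few UMIs.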

How the results depend on the processing

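No paired analysis was possible because the labels number no mice across groups. Batch was treated as a factor instead: with batch as a term edgeR called 0 genes in each comparison, and with labels permuted within batches the share for control RE minus NP was −0.00678 percentage points (exact permutation p = 0.944) and the log2 ratio for stress RE minus control RE 0.95 (exact permutation p = 0.0556, the smallest possible), while the other 7 differences kept their direction and did not pass the threshold, which 36 arrangements cannot reach for the comparisons with control RE. The number of nuclei limits all results, since 1 nucleus in a mouse with 15 is a large part of the class. The alternatives with labels permuted within batches, with the mean over nuclei, without nuclei over 3 times the median UMI count and with nuclei of a ratio of at most 0 were chosen after seeing the data. Where a value below turned or moved past the threshold, the cause was not tested. The share for control RE minus NP became −0.0116 percentage points under the stricter rule, −0.0570 after thinning to 2000 UMIs, −0.109 within batch 2 and −0.0103 on the log2 scale. For stress RE minus control RE it became −0.0174 as a share of lineage nuclei and −0.0233 within batch 3, and for stress RE minus NP −0.00101 under the stricter rule. Per 100 precursors, control RE minus NP became −2.02 after thinning and −3.46 within batch 2. For these shares and ratios the rule was re-applied to the thinned counts, so the thinned class is not the same set of nuclei. A precursor that lost Pdgfra UMIs could enter it. Stress RE mouse 2 went from 15 to 20 newly formed oligodendrocytes and from 10.9 to 35.7 per 100 precursors.

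The log2 ratio for stress RE minus control RE, not called after adjustment over the 9 tests, also lost its unadjusted p under 0.05 with the stricter rule (0.24), the median (0.32) and the mean over nuclei (0.56), nuclei of a ratio of at most 0 (0.0846), and within batch 2 (0.66) and batch 3 (1.25), where 2 mice against 2 cannot pass. For stress RE minus NP it became 0.69 without high doublet scores (exact permutation p = 0.0455), −0.36 with the median and −0.0918 with nuclei of a ratio of at most 0. With no filter on low counts edgeR called 4, 124 and 115 of 19320 genes in the order of the report, against 4391 genes tested in the main fit. This setting adds genes of few UMIs, and 86 of the 124 and 92 of the 115 were lower in stress RE mice. For stress RE against control RE, DESeq2 called 8 of 4391 genes, and edgeR called 6 of 4878 with at least 20 nuclei per mouse. Without high doublet scores edgeR called 2 of 3254 (2 also for stress RE against NP). With nuclei of a ratio of at most 0 it called 1 of 4456. Leaving out single mice gave shares of −0.0209 to 0.0411 (control RE minus NP), −0.00771 to 0.0563 (stress RE minus control RE) and 0.00216 to 0.0592 (stress RE minus NP), counts per 100 precursors of 0.746 to 4.16 (control RE minus NP), −0.863 to 2.77 (stress RE minus control RE) and 1.69 to 4.93 (stress RE minus NP), log2 ratios of −0.67 to −0.37 (control RE minus NP, with an exact permutation p of 0.0357 without control RE mouse 2 and 0.0476 without NP mouse 2) and 0 to 2 called genes for stress RE against control RE (2 without NP mouse 4, 1 without stress RE mouse 5).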
